A study of Mus musculus with 30 samples.

Results

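The genes *Ly6a*, *Ly6c1*, *Ly6c2*, *Ly6e*, *Ly6i* and *Ly6d* are 6 of the 45317 genes counted in monocytes and macrophages sorted from blood and glioma of mice. They were chosen by name as Ly6 family genes, and all 6 passed the filter on low counts that kept 11566 genes for testing. RNA-seq was made from 28 replicates of 8 sorted populations taken from 4 mice, numbered 22, 23, 24 and 26. Every mouse was a C57BL6.CCR2RFP/WT animal of 12 to 18 weeks, in which 1 *Ccr2* allele carries a red fluorescent reporter, and every mouse bore a GL261 glioma. The tumor cells carried a palmitoylated GFP that anchors in membranes, so that GFP in a host cell marks uptake of tumor membrane. The brain populations were glioma monocytes, CCR2high macrophages and CCR2low macrophages, each sorted into GFPneg and GFPpos cells. The blood populations were Ly6Chigh and Ly6Clow monocytes. Blood monocytes came from mice 22, 23 and 24 (n = 3), glioma monocytes from mice 22, 24 and 26 (n = 3), and macrophages from all 4 mice. No tumor-free animals were in the comparisons, microglia were not sorted as a population but gated away by high CD11b and CD45, and GL261 is 1 cell line.

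Ly6 proteins are small and cysteine-rich, fold into a three-finger domain, and are mostly held on the cell surface by a GPI anchor. In mouse blood the LY6C protein separates inflammatory Ly6Chigh from patrolling Ly6Clow monocytes, and LY6A, also called Sca-1, is best known from haematopoietic stem cells, T cells and endothelium. *Ly6a*, *Ly6e* and several relatives are induced by interferons in many cell types.

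LY6C antibody was itself a sorting gate. Blood monocytes were split by it, and glioma monocytes were taken as LY6C-high cells, so the level of *Ly6c2* in those populations describes the sort and is no independent finding. *Ly6c1* is a close copy whose protein the same antibody may bind. The other 4 members were no gate.

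All 6 genes lie on chromosome 15 of GRCm38. *Ly6d* spans 74762056 to 74763620, *Ly6e* 74955051 to 74959905, *Ly6i* 74979534 to 74983430, *Ly6a* 74994877 to 74998031, *Ly6c1* 75044018 to 75048830 and *Ly6c2* 75108158 to 75111970, with *Ly6e* on the plus strand and the others on the minus strand. The coding sequences of *Ly6c1* and *Ly6c2* agreed at 387 of 396 positions (97.7%), and the first 300 bases of each are shown because reads from this pair decide how the counts divide. Both were read from GRCm38 with GENCODE transcripts, 5′ to 3′, and capitals mark the 7 positions at which they differ within the stretch.
Ly6c1: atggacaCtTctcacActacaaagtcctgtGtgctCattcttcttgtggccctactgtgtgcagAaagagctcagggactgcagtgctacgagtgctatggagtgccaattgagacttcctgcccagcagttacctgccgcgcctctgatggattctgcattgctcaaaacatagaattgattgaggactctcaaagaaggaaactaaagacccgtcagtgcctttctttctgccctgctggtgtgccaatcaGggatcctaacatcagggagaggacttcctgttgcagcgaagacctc
Ly6c2: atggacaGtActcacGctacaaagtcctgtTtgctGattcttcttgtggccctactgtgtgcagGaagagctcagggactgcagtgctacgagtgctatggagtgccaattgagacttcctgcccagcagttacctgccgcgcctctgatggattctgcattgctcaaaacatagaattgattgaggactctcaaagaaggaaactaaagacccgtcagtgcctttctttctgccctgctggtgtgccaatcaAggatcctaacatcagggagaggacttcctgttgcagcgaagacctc
Over the whole coding sequence the pair shared a run of 188 identical bases, longer than a 75-base read. Of all 75-base windows of the main transcripts, 23.2% of those of *Ly6c1* and 21.9% of those of *Ly6c2* occurred exactly in another gene, against 0.805% for *Ly6a*, 0.555% for *Ly6i* and 0% for *Ly6e* and *Ly6d*. A read inside a shared window cannot by itself be assigned to 1 of the copies, while a mate outside it can place the pair. The percentages are shares of windows and not of counts. The counts of both copies are uncertain by an amount that was not measured. *Ly6a* and *Ly6i* were the next closest pair, at 86.4% identity, and *Ly6e* and *Ly6d* were between 52.1% and 56.4% identical to any other member.

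Upstream of the start sites the copies were less alike. RefSeq (GRCm38.p6) places the 250 bases before *Ly6c1* at chr15:75048838-75049087 and those before *Ly6c2* at chr15:75111972-75112221, both on the minus strand. They are shown because the pair was counted at very different levels. Capitals mark the ETS-type motif GAGGAAGT.
Ly6c1 upstream: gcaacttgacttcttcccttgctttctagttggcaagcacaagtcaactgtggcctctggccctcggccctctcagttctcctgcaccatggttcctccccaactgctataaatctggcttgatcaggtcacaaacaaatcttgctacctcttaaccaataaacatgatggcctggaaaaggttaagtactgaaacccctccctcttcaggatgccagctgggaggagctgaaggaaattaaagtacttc
Ly6c2 upstream: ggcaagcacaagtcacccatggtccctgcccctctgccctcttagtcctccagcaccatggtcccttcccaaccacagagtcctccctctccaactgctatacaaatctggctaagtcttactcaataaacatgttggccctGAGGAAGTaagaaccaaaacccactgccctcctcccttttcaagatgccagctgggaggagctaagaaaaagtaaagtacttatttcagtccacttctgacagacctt
Of 229 aligned columns 168 were identical, or 73.4%. Searched on both strands in 250 bases before to 50 after the start, GAGGAAGT was present in 3.20% of 32851 promoters. The printed *Ly6c2* stretch held it once and the printed *Ly6c1* stretch did not, while the window of another listed *Ly6c1* start held it at position -127. The interferon-related motifs TTCNNNGAA (8.30% of promoters) and GAAANNGAA (8.56%) were found in neither gene's windows. A match or its absence here describes letters in a window and no binding.

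Library totals after summing repeats ran from 1553616 to 5689644 gene counts. Macrophage markers such as *Adgre1*, *Mertk* and the *C1q* genes summed to between 13281 and 34475 CPM in brain replicates, against 3258 to 6242 in blood. Their sum reached 24081 CPM in GFPpos glioma monocytes, within the macrophage range of 18668 to 34475 CPM. All 12 monocyte and all 10 macrophage markers were detected in every population. The monocyte markers summed to 16386 to 20708 CPM in Ly6Chigh and 6180 to 11844 CPM in Ly6Clow monocytes. In glioma monocytes they summed to 5569 to 12714 CPM and in macrophages to 4309 to 9065 CPM. Microglial markers, some of which macrophages can also express, summed to 2041 to 10886 CPM in brain replicates and 58.6 to 285 CPM in blood, and dendritic cell markers to 379 to 1774 CPM in Ly6Clow and 134 to 244 CPM in Ly6Chigh monocytes. Their part in the members' differences was not tested. Markers of B and plasma cells, of T and NK cells, of neutrophils and of endothelium were present too, and their sums are given beside the genes that moved with them. One library of Ly6Clow monocytes of mouse 23 was left out because it held 3460 genes with at least 5 reads, under the study's limit of 6000. The library of the same sample that was used still took 13.3% of its reads from spike-in RNA, and 1 of the 2 libraries summed for GFPpos glioma monocytes of mouse 22 took 8.68%. Levels are given as CPM (each count divided by the TMM-scaled library total and multiplied by a constant). In bulk RNA of a sorted population, fewer cells that make a transcript and less transcript per cell cannot be told apart.

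**Figure D1:**
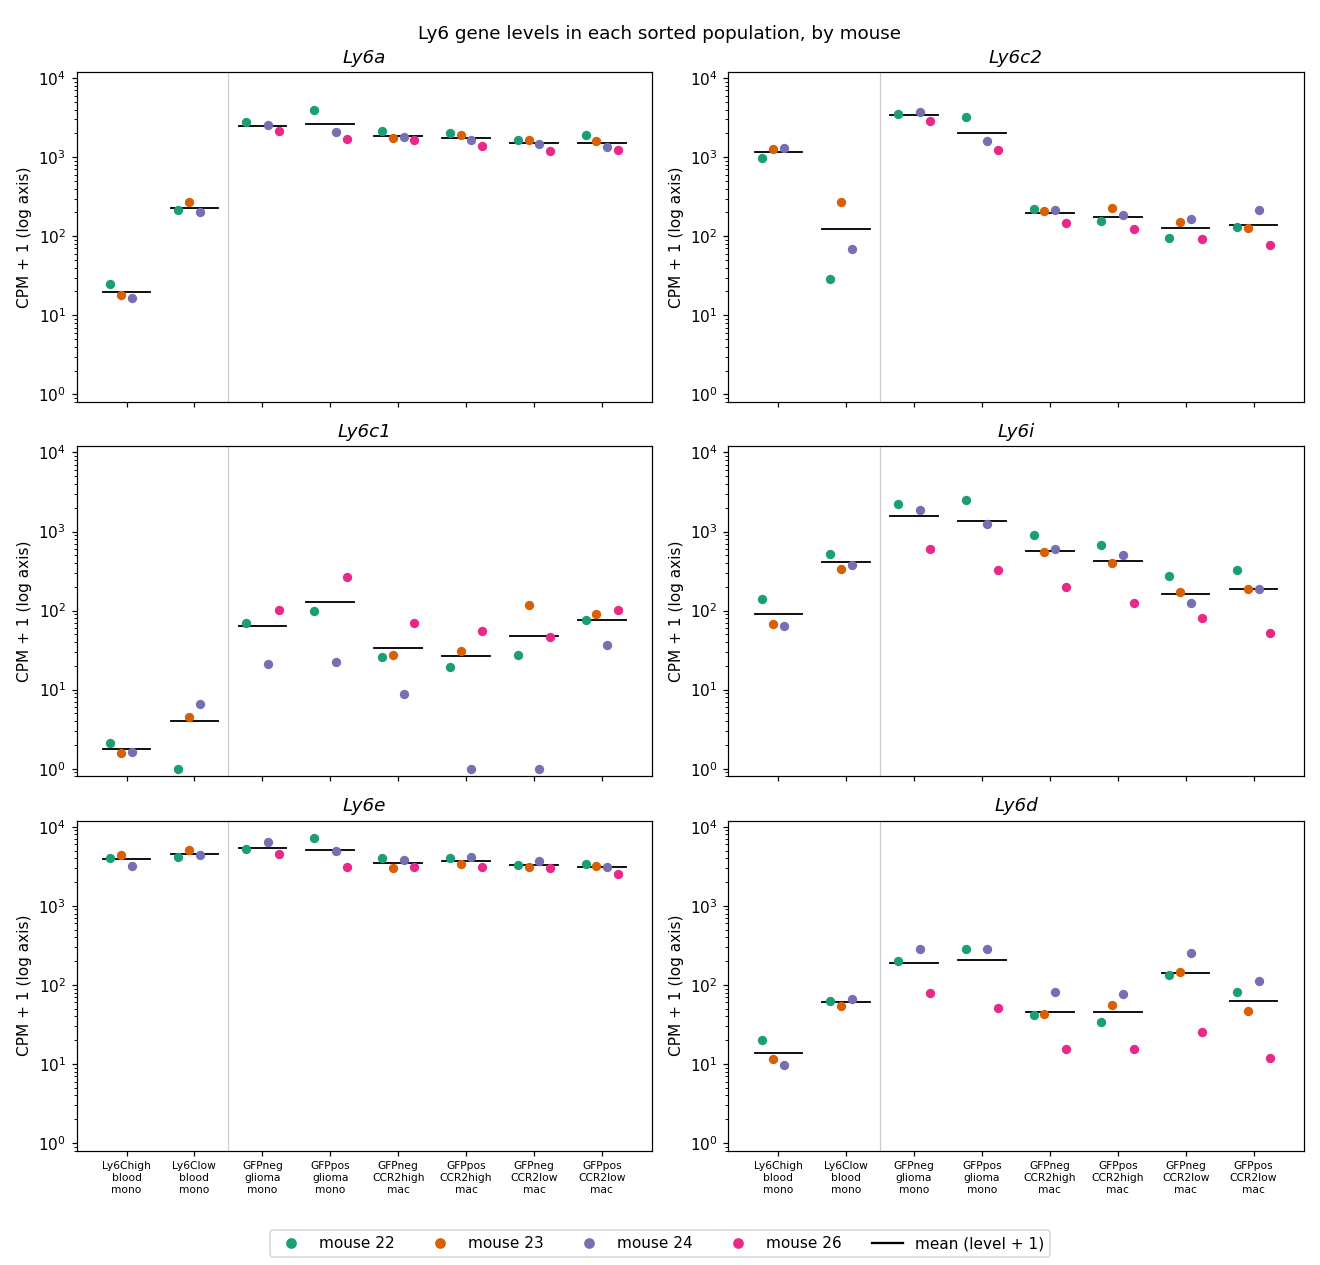
Level of each Ly6 gene in every replicate, as CPM plus 1 on a log axis, by sorted population. Points are coloured by mouse and the bar is the mean, and *Ly6a* lies between 15.7 and 268 CPM in blood and between 1210 and 4004 CPM in the brain, while *Ly6e* stays within 2562 to 7180 CPM in all 28 replicates.

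*Ly6a*, which encodes Sca-1, separated blood from brain. In Ly6Chigh monocytes it measured 24.2, 16.99 and 15.7 CPM in mice 22, 23 and 24, and in Ly6Clow monocytes 212, 268 and 202 CPM. GFPneg glioma monocytes had 2759, 2561 and 2149 CPM in mice 22, 24 and 26, and GFPpos glioma monocytes had 4004, 2097 and 1695 CPM. CCR2high macrophages ranged from 1375 to 2146 CPM and CCR2low macrophages from 1210 to 1909 CPM. No brain replicate came near a blood replicate, and no Ly6Clow replicate came near a Ly6Chigh one. Beyond the spread between replicates, *Ly6a* was 131-fold higher in GFPneg glioma monocytes than in Ly6Chigh monocytes (log2 fold change 7.05, SE 0.34, adjusted p = 1.32e-13, ratio of means), which ranked it first of 11566 genes by p. Its lead over Ly6Chigh was 6.60 (SE 0.33, adjusted p = 3.01e-13) in CCR2high and 6.32 (SE 0.32, adjusted p = 2.74e-13) in CCR2low GFPneg macrophages. Against Ly6Clow monocytes the log2 differences were 3.45, 3.01 and 2.72 for glioma monocytes, CCR2high and CCR2low macrophages, with adjusted p of 2.27e-09, 8.69e-09 and 3.39e-08. Within blood it was 12.0-fold lower in Ly6Chigh than in Ly6Clow monocytes (log2 fold change -3.60, SE 0.29, adjusted p = 2.92e-08), again first by p among all genes and lower in 3 of 3 mice. The blood call was lost when libraries were scaled to the spike-in RNA (-1.75, adjusted p = 0.241, with a shift of 1.69 in the median gene, or -3.44 relative to it) and when only the 2 blood populations were fitted (-3.60, adjusted p = 0.0928). Some T cells are known to carry Sca-1, and 12 markers of T and NK cells summed to 33.4 to 283 CPM in Ly6Chigh and 1307 to 2044 CPM in Ly6Clow monocytes, and their part in the difference was not tested. Blood was sorted by CD45, CD115 and absence of CD11c, and these marker sums are from the sorted cells. The brain replicates had 654 to 3337 CPM of the same markers, a span that includes the Ly6Clow range.

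Among brain cells *Ly6a* differed little. In GFPneg cells the log2 difference of glioma monocytes was 0.44 over CCR2high macrophages (SE 0.24, adjusted p = 1) and 0.73 over CCR2low macrophages (SE 0.24, adjusted p = 0.179). With mouse as a block the second became 0.77 (adjusted p = 0.00741), and the like comparison among GFPpos cells 0.77 (adjusted p = 0.0214). Spike-in scaling gave -1.26 for the latter, where the unblocked value was 0.78, with a shift of -1.70 in the median gene, or 0.45 relative to it. Without GFPpos glioma monocyte replicate 26 the unblocked value was 1.01 (adjusted p = 0.0393). Mouse 26 was lowest in 6 of 6 brain populations and mouse 22 highest in 5 of 6.

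*Ly6c2*, the gene of the LY6C protein, followed the gates. Ly6Chigh monocytes had 964, 1273 and 1291 CPM in mice 22, 23 and 24, and Ly6Clow monocytes 27.8, 273 and 68.1 CPM. GFPneg glioma monocytes had 3496, 3763 and 2857 CPM in mice 22, 24 and 26, and GFPpos glioma monocytes 3183, 1581 and 1217 CPM. All 16 macrophage replicates lay between 76.9 and 230 CPM, below every glioma monocyte. The lowest glioma monocyte, at 1217 CPM, fell within the Ly6Chigh range and the other 5 lay above it. The log2 lead of GFPneg glioma monocytes was 4.10 (SE 0.50, adjusted p = 1.26e-04) over CCR2high and 4.76 (SE 0.51, adjusted p = 8.03e-06) over CCR2low macrophages, and *Ly6c2* ranked first by p in both. Among GFPpos cells the leads were 3.53 (adjusted p = 0.00129) and 3.86 (adjusted p = 1.65e-04). With spike-in scaling, of these calls only that over GFPneg CCR2low macrophages stood (4.85, adjusted p = 0.0121). The lead was then 3.92 over GFPneg CCR2high macrophages (adjusted p = 0.221). Among GFPpos cells the scaled leads were 1.90 (adjusted p = 0.517) and 1.67 (adjusted p = 0.250). GFPneg macrophages were below Ly6Chigh monocytes by 2.58 and 3.24 on the log2 scale (adjusted p = 2.50e-04 and 1.87e-05). The directions match the gates and so check the sort. Not fixed by the gate in the same way, since both populations were LY6C-high, was the 2.87-fold higher mean of GFPneg glioma monocytes than of Ly6Chigh blood monocytes (log2 fold change 1.52, SE 0.50, adjusted p = 0.0438). Leaving out any 1 of the 6 replicates of these groups (Ly6Chigh of mouse 22, 23 or 24, or glioma monocytes of mouse 22, 24 or 26) raised the adjusted p to between 0.0690 and 0.163, while the log2 fold change stayed between 1.33 and 1.59. The level was higher in glioma in both mice with the pair, by 2.91- and 3.63-fold, and with mouse as a block the value was 1.88 (adjusted p = 0.00465). With spike-in scaling the value was 1.27 (adjusted p = 0.683). Staining of blood and brain was separate, so the LY6C gates of the 2 tissues cannot be equated. Ly6Clow replicate 23, the highest of its group, also weighed on the comparison with GFPneg macrophages. Without it *Ly6c2* was higher in CCR2high (1.99, adjusted p = 0.00203) and in CCR2low macrophages (1.35, adjusted p = 0.0289) than in Ly6Clow monocytes. With it neither was called (0.68 and 0.02). Spike-in scaling with all replicates called both, at 3.32 (adjusted p = 0.00786) and 2.39 (adjusted p = 0.0444). The median gene then shifted by 1.87 and 1.74, and relative to it the values were 1.45 and 0.65.

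*Ly6c1*, the close copy, was nearly absent from blood monocytes and present in most brain samples. Counts of *Ly6c1* were 2, 1 and 3 in the Ly6Chigh replicates of mice 22, 23 and 24, beside 1716, 2174 and 6176 of *Ly6c2*. In Ly6Clow monocytes they were 0, 9 and 19, where the 0 allows up to 1.42 CPM. In GFPneg glioma monocytes *Ly6c1* reached 69.2, 19.8 and 101 CPM in mice 22, 24 and 26, and in GFPpos glioma monocytes 96.9, 21.1 and 265 CPM. CCR2high macrophages had 0 to 69.5 CPM and CCR2low macrophages 0 to 116 CPM, and the 2 macrophage zeros were both from mouse 24. Summed over replicates and scaled by library size, *Ly6c1* was 84.6 times the Ly6Chigh level in GFPneg glioma monocytes (95% counting interval 38.4 to 232) and 185 times in GFPpos glioma monocytes (84.8 to 505). The ratio was 52.3 and 45.3 in GFPneg and GFPpos CCR2high macrophages, 85.2 and 101 in CCR2low macrophages, and 4.77 (1.94 to 14.1) in Ly6Clow monocytes. The intervals cover counting error only, and the Ly6Chigh side rests on 6 counts. Single mice weighed heavily: 491 of the 625 counts of GFPneg CCR2low macrophages came from mouse 23, without which the ratio was 31.4. Without mouse 26 it was 109 in GFPpos glioma monocytes, 30.2 in GFPneg and 29.8 in GFPpos CCR2high macrophages, and without mouse 24 it was 2.63 in Ly6Clow monocytes.

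In the fit across genes *Ly6c1* was called higher than in Ly6Chigh monocytes in GFPneg glioma monocytes (adjusted p = 0.00712), CCR2high macrophages (adjusted p = 0.0141) and CCR2low macrophages (adjusted p = 0.00707). Spike-in scaling lost these calls, at 6.52, 5.53 and 5.85 (adjusted p = 0.0576, 0.0899 and 0.0658). *Ly6c1* was also called against Ly6Clow monocytes in glioma monocytes (4.30, SE 1.34, adjusted p = 0.0262) and CCR2low macrophages (3.88, SE 1.29, adjusted p = 0.0306). With mouse as a block the last was 2.54 with an adjusted p of 0.0867. Several of these calls were lost when 1 replicate was left out. Against Ly6Chigh, leaving out Ly6Chigh replicate 24 gave an adjusted p of 0.0516 for glioma monocytes, and leaving out Ly6Chigh replicate 22, 23 or 24 gave 0.0510, 0.0663 or 0.0817 for CCR2high macrophages. The log2 fold changes then stayed between 5.77 and 6.69 for glioma monocytes and between 4.61 and 5.62 for CCR2high macrophages, whichever replicate was left out. Against Ly6Clow, the glioma monocyte call was lost without glioma monocyte replicate 22 (0.0509) or 26 (0.0781) or Ly6Clow replicate 22 (0.0808) or 23 (0.0790), and the CCR2low call without CCR2low replicate 23 (0.111) or Ly6Clow replicate 22 (0.0942) or 23 (0.0900). CCR2high macrophages exceeded Ly6Clow monocytes by 3.34 (adjusted p = 0.0569), which became a call without CCR2high replicate 24 (3.63, adjusted p = 0.0480). No comparison within the brain called *Ly6c1*, with log2 differences between -0.54 and 2.29.

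**Figure D2:**
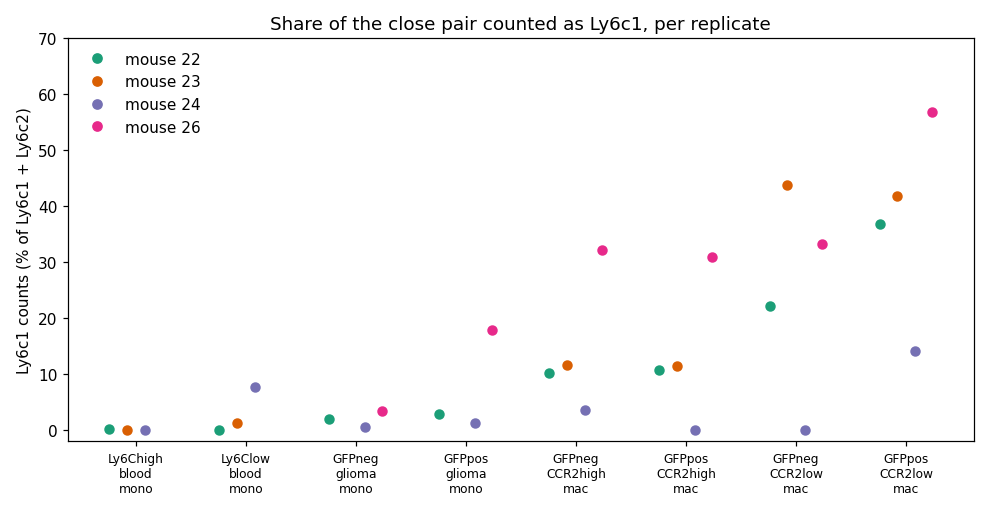
Percent of the counts of *Ly6c1* and *Ly6c2* together that fell to *Ly6c1*, per replicate, coloured by mouse. In Ly6Chigh blood monocytes the share is at most 0.116%, in glioma monocytes between 0.524% and 17.9%, and in macrophages it reaches 56.8%.

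The share of the pair counted as *Ly6c1* was 0.0460% to 0.116% in Ly6Chigh monocytes and 0% to 7.63% in Ly6Clow monocytes. It was 0.524% to 3.42% in GFPneg and 1.32% to 17.9% in GFPpos glioma monocytes. In macrophages, where *Ly6c2* was low, it spanned 3.53% to 32.2% in GFPneg CCR2high, 0% to 30.8% in GFPpos CCR2high, 0% to 43.7% in GFPneg CCR2low and 14.1% to 56.8% in GFPpos CCR2low cells. The library with 6176 counts of *Ly6c2* held 3 counts of *Ly6c1*.

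**Figure D3:**
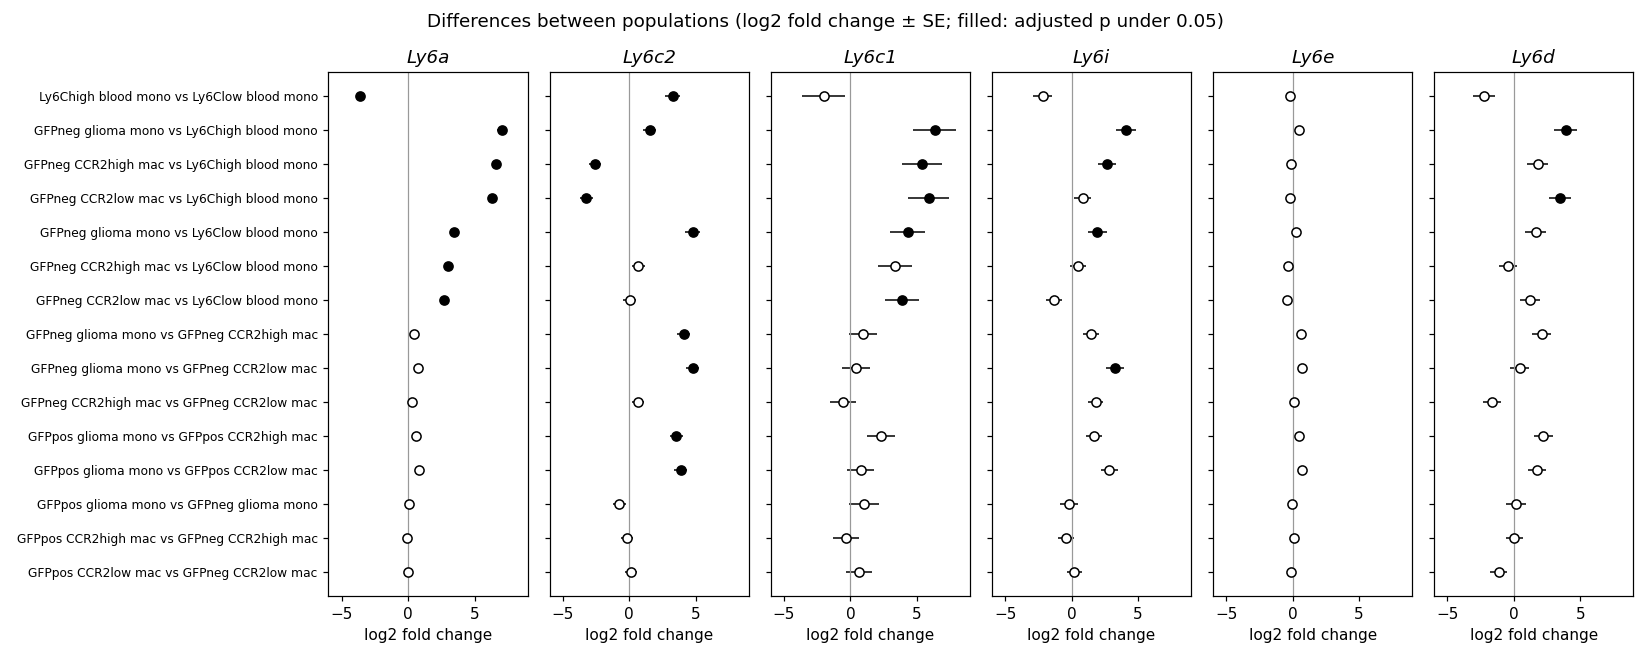
Log2 fold change of each Ly6 gene with its standard error in 15 comparisons, with filled points where the adjusted p was under 0.05. *Ly6a* is filled in all 7 comparisons that involve blood, and *Ly6e* in none.

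*Ly6c1* moved with markers of endothelium. The 14 endothelial markers summed to 38.1 to 54.8 CPM in Ly6Chigh and 99.1 to 171 CPM in Ly6Clow monocytes, and to between 65.7 and 480 CPM in brain replicates. Defining markers *Cldn5*, *Cdh5*, *Kdr*, *Tek*, *Tie1* and 4 more, 9 of 14, were at 0 in both blood populations, and none was at 0 in any brain population. Over 22 brain replicates log2 *Ly6c1* and the log2 marker sum had r = 0.85 (rho = 0.93), and r = 0.85 again without the 2 replicates farthest from the median of the sum. These points share 4 mice and are not independent. Mouse 24 was lowest in *Ly6c1* in 6 of 6 brain populations and mouse 26 highest in 5 of 6. Population accounted for 24.8% and mouse for a further 56.4% of the variance of log2 *Ly6c1* among brain replicates. The genes whose levels ran most alike over all 28 replicates were *Pcolce* (r = 0.96), *Gjc3* (r = 0.95) and *F3* (r = 0.95). Over the 22 brain replicates they were *Pcolce* (r = 0.98), *Syt4* (r = 0.96) and *Moxd1* (r = 0.96). None of these genes is among the 14 endothelial markers. *Gjc3*, a gap junction gene of oligodendrocytes, was at 0 in every blood replicate and averaged 29.5 CPM in GFPneg glioma monocytes. The 11 listed markers of neurons and macroglia summed to 237 to 623 CPM in blood and 80.1 to 226 CPM in brain replicates, and over the brain replicates their sum had r = 0.65 with *Ly6c1* (0.51 without the 2 farthest points). Brain cells were sorted as CD11b-high and CD45-high, and the marker sums above are from the sorted cells. The part of endothelial cells or of any other cells in the *Ly6c1* level was not tested.

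**Figure D4:**
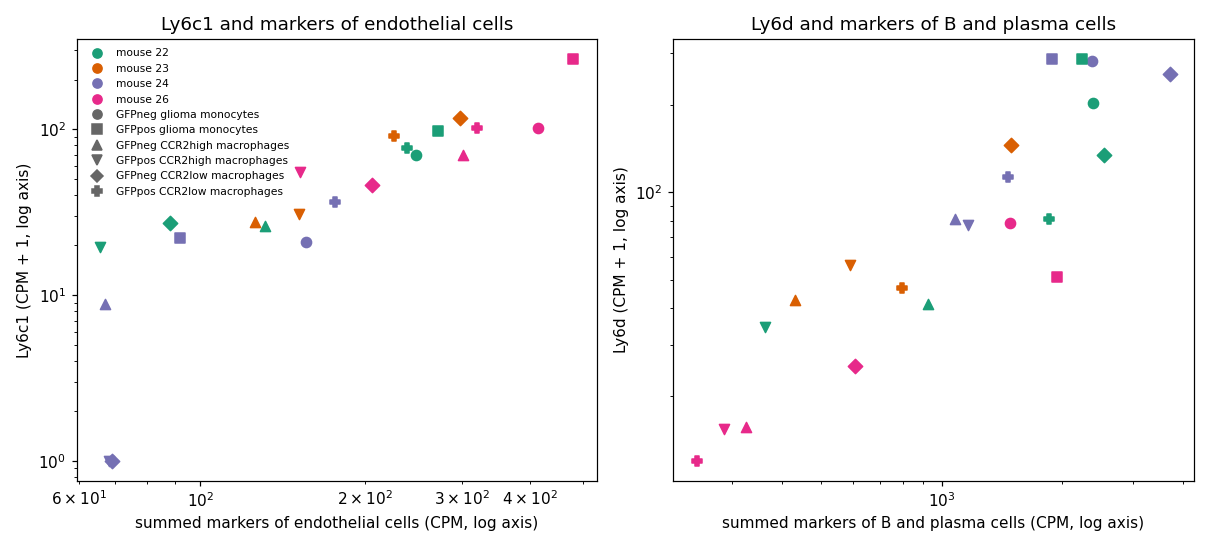
Left, *Ly6c1* (CPM plus 1) against the summed CPM of 14 endothelial markers. Right, *Ly6d* (CPM plus 1) against the summed CPM of 9 markers of B and plasma cells, both on log axes over 22 brain replicates with colours for mice and shapes for populations. Both genes are high where the markers are high (r = 0.85 and 0.90).

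*Ly6i*, a relative of *Ly6a* with a less studied product, peaked in glioma monocytes. Ly6Chigh monocytes had 140, 67.4 and 62.3 CPM in mice 22, 23 and 24, and Ly6Clow monocytes 513, 334 and 372 CPM. Levels in GFPneg glioma monocytes were 2221, 1855 and 606 CPM in mice 22, 24 and 26, and in GFPpos glioma monocytes 2486, 1239 and 328 CPM. The GFPneg CCR2high macrophages of mice 22, 23, 24 and 26 had 912, 555, 597 and 195 CPM, and the GFPneg CCR2low macrophages 270, 172, 123 and 80.7 CPM. Within a mouse, the GFPneg level fell from glioma monocytes to CCR2high macrophages in 3 of 3 mice and from CCR2high to CCR2low macrophages in 4 of 4. Tests found 4.12 (SE 0.75, adjusted p = 3.30e-04) for GFPneg glioma monocytes over Ly6Chigh, 1.94 (SE 0.68, adjusted p = 0.0480) over Ly6Clow and 3.27 (SE 0.65, adjusted p = 0.00702) over CCR2low macrophages. CCR2high macrophages were above Ly6Chigh by 2.66 (SE 0.69, adjusted p = 0.00700), a call lost without Ly6Chigh replicate 23 (0.0518) or 24 (0.0520). The call over Ly6Clow was lost without glioma monocyte replicate 22 (0.152) or 24 (0.109) or Ly6Clow replicate 22 (0.0727), 23 (0.148) or 24 (0.0810). Spike-in scaling lost the call of glioma monocytes over CCR2low macrophages (2.94, adjusted p = 0.967). It also lost that of CCR2high macrophages over Ly6Chigh (2.68, adjusted p = 0.0795).

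The mice differed strongly in *Ly6i*, and a fit with mouse as a block made calls that the fit without it did not. In blood the difference was -2.18 (SE 0.70, adjusted p = 0.0616), and -2.25 (adjusted p = 1.13e-06) with the block, lower in Ly6Chigh in 3 of 3 mice. Without Ly6Clow replicate 24 the unblocked adjusted p was 0.0446. CCR2high exceeded CCR2low macrophages by 1.803 (SE 0.59, adjusted p = 1), or 1.72 (adjusted p = 7.07e-05) with the block. Glioma monocytes exceeded CCR2high macrophages by 1.47 (adjusted p = 0.762), or 1.53 with the block (adjusted p = 1.69e-04), and among GFPpos cells by 1.68 (adjusted p = 0.700), or 1.56 (adjusted p = 3.05e-04). Spike-in scaling gave -0.48 for the latter with a shift of -1.22 in the median gene, or 0.74 relative to it. GFPpos glioma monocytes exceeded GFPpos CCR2low macrophages by 2.85 (adjusted p = 0.0645), or 2.76 (adjusted p = 1.73e-08) with the block, and without glioma monocyte replicate 26 the unblocked value was 3.31 (adjusted p = 0.0115). Blocked values were also called for CCR2low macrophages over Ly6Chigh (1.29, adjusted p = 8.21e-05), CCR2high over Ly6Clow (0.75, adjusted p = 0.00926) and CCR2low below Ly6Clow (-0.96, adjusted p = 0.00125). Spike-in scaling gave 0.37 for the last with a shift of 1.74 in the median gene, or -1.37 relative to it. Of the variance of log2 *Ly6i* among brain replicates, population took 63.2%, mouse a further 34.8%, and 1.99% was left. Mouse 22 was highest and mouse 26 lowest in 6 of 6 brain populations.

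**Figure D5:**
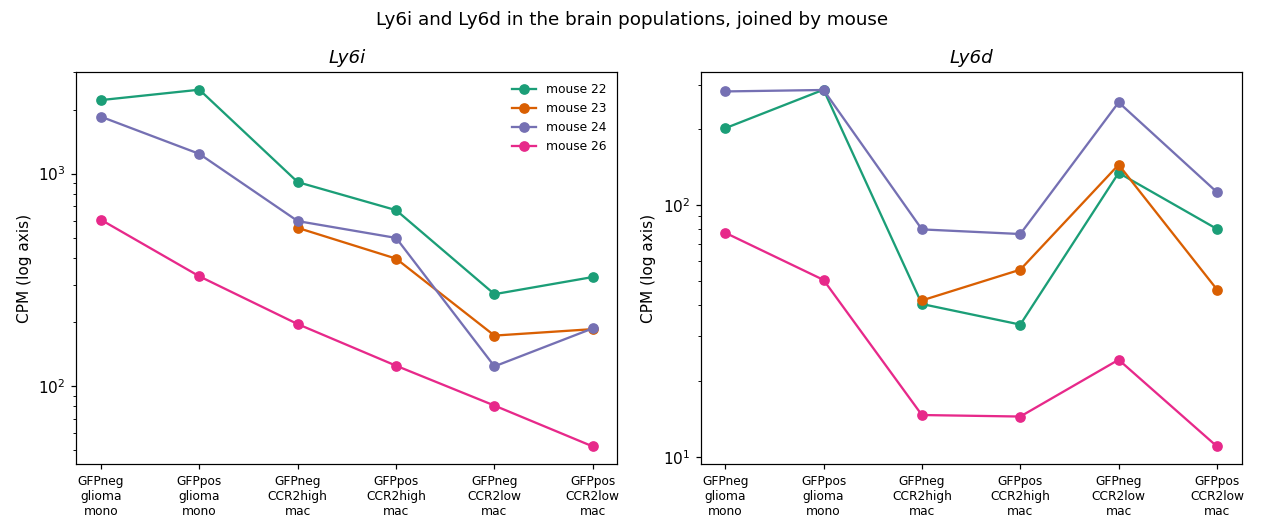
*Ly6i* and *Ly6d* in the 6 brain populations (CPM, log axes), with points of a mouse joined. Lines of mice 23 and 24 cross for *Ly6i* and lines of mice 22 and 23 cross for *Ly6d*. Mouse 26 lies lowest in 6 of 6 populations for both genes.

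*Ly6e*, a widely expressed family member that is induced by interferon, was the most evenly expressed. Replicates ranged from 3194 to 4417 CPM in Ly6Chigh, 4090 to 5111 CPM in Ly6Clow, 3147 to 7180 CPM in glioma monocytes and 2562 to 4092 CPM in macrophages. No comparison called it, with absolute log2 fold changes between 0.07 and 0.73. Mean levels were highest in GFPneg glioma monocytes, at 5404 CPM, and lowest in GFPpos CCR2low macrophages, at 3069 CPM. With mouse as a block it was higher in GFPneg glioma monocytes than in Ly6Chigh monocytes (0.58, adjusted p = 0.0400) and than in CCR2low macrophages (0.72, adjusted p = 0.0209), and without GFPpos glioma monocyte replicate 26 GFPpos glioma monocytes exceeded GFPpos CCR2low macrophages (0.98, adjusted p = 0.0123). Over all replicates spike-in scaling gave -1.41 there with a shift of -1.70 in the median gene, or 0.30 relative to it. Levels of different genes were set side by side per kilobase, where the order depended on the length used. Per kilobase of all annotated exons, GFPneg glioma monocytes held 2066 CPM of *Ly6a*, 1428 of *Ly6e*, 1350 of *Ly6i*, 1231 of *Ly6c2*, 251 of *Ly6d* and 37.8 of *Ly6c1*. In Ly6Chigh monocytes *Ly6e* led with 1024 and *Ly6c2* followed with 429, before 77.7 for *Ly6i*, 17.2 for *Ly6d*, 15.7 for *Ly6a* and 0.464 for *Ly6c1*. Per kilobase of the main transcript *Ly6c2*, whose annotated exons span 2740 bases against 822 in that transcript, led in GFPneg glioma monocytes with 4102, before 3040 for *Ly6a*, 2369 for *Ly6e* and 1350 for *Ly6i*, and in Ly6Chigh monocytes it reached 1431 beside 1699 for *Ly6e*.

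*Ly6d*, best known as a marker of B cell progenitors and of keratinocytes, was low in Ly6Chigh monocytes (19.1, 10.5 and 8.78 CPM in mice 22, 23 and 24) and higher in Ly6Clow monocytes (62.3, 53.2 and 64.5 CPM). GFPneg glioma monocytes had 201, 282 and 77.4 CPM in mice 22, 24 and 26, and GFPpos glioma monocytes 286, 285 and 50.3 CPM. CCR2high macrophages of both kinds ranged from 14.4 to 79.8 CPM, GFPneg CCR2low macrophages from 24.3 to 255 CPM and GFPpos CCR2low macrophages from 10.98 to 112 CPM. The groups overlapped widely within the brain and mouse 26 lay below the others. *Ly6d* was called higher than in Ly6Chigh in GFPneg glioma monocytes (3.88, SE 0.86, adjusted p = 0.00235) and CCR2low macrophages (3.46, SE 0.82, adjusted p = 0.00317). Spike-in scaling kept the first call (3.56, adjusted p = 0.0485) and lost the second (3.12, adjusted p = 0.0614). The blood difference was -2.25 (adjusted p = 0.101), or -2.23 (adjusted p = 7.04e-04) with mouse as a block. Other differences called with the block alone were CCR2high macrophages over Ly6Chigh (2.11, adjusted p = 1.96e-04), glioma monocytes over Ly6Clow (2.11, adjusted p = 2.78e-04) and over CCR2high macrophages (2.23, adjusted p = 7.33e-04), and CCR2low macrophages over Ly6Clow (1.39, adjusted p = 0.00443). Among GFPpos cells, glioma monocytes were higher than CCR2high (2.14, adjusted p = 0.00301) and CCR2low macrophages (1.84, adjusted p = 0.00467) with the block. Spike-in scaling gave -1.09 for the second with a shift of -1.70 in the median gene, or 0.62 relative to it.

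*Ly6d* ran with immunoglobulin transcripts. The genes most like it over 28 replicates were *Iglc3* (r = 0.92), *Igkc* (r = 0.85) and *Iglc2* (r = 0.82), all of which encode antibody light chains. B and plasma cell markers, of which 9 were in the table, summed to 574 to 791 CPM in Ly6Chigh and 1029 to 1326 CPM in Ly6Clow monocytes, and to 245 to 3712 CPM in brain replicates. *Ly6d* and the marker sum had r = 0.90 (rho = 0.88) over 22 brain replicates, and r = 0.86 without the 2 farthest points. Mouse 26 had the lowest sum in all 4 macrophage populations and in GFPneg glioma monocytes. Population took 41.7% of the variance of log2 *Ly6d* in the brain and mouse a further 53.7%. Sorting kept cells by CD11b and CD45 in brain, and the part of B cells in the *Ly6d* level was not tested.

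Most calls of the 6 genes came from comparisons with blood. The share of all tested genes called is the background for each count. In Ly6Chigh against Ly6Clow monocytes 2 of 6 were called, 1 in each direction, beside 5.61% of all genes. In GFPneg cells against Ly6Chigh, 5 of 6 were called higher in glioma monocytes (13.8% of all genes called), 3 higher and 1 lower in CCR2high macrophages (17.8%) and 3 higher and 1 lower in CCR2low macrophages (20.2%). Against Ly6Clow, 4 of 6 were higher in glioma monocytes (18.5%), 1 in CCR2high macrophages (23.1%) and 2 in CCR2low macrophages (23.4%). These comparisons share the blood samples, and values are given side by side only. Within the brain, GFPneg glioma monocytes exceeded CCR2high macrophages in 1 member (0.182% of all genes) and CCR2low macrophages in 2 (1.21%), the members being *Ly6c2* and *Ly6i*. For GFPpos cells the counts were 1 (0.0173%) and 1 (0.164%), *Ly6c2* in each. Where the LY6C gate separated the populations, as here and in blood, a *Ly6c2* call checks the sort and is no independent finding. Apart from *Ly6c2*, the only call within the brain was *Ly6i*, in GFPneg glioma monocytes over CCR2low macrophages, and the only call in blood was *Ly6a*. CCR2high against CCR2low macrophages gave 0 of 6 (0% of all genes, with 276 genes at an unadjusted p under 0.05 by edgeR). With mouse as a block it was 1 of 6, *Ly6i*, among 3 genes called in all.

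No member was called different between cells with and without uptake of tumor membrane. GFPpos against GFPneg cells gave 0 of 6 called in glioma monocytes, CCR2high macrophages and CCR2low macrophages alike (each 0% of all genes called, with 739, 69 and 184 genes at an unadjusted p under 0.05 by edgeR), and the fit with mouse as a block also called 0 in each. Log2 differences of the members ran from -0.76 (*Ly6c2*) to 1.01 (*Ly6c1*) in monocytes, from -0.42 to 0.07 in CCR2high macrophages and from -1.16 (*Ly6d*) to 0.68 in CCR2low macrophages. The 95% interval of the *Ly6d* value, -2.44 to 0.13, spans sizeable differences. Within mice, *Ly6d* was lower in GFPpos than in GFPneg CCR2low macrophages in 4 of 4 mice, by 1.67- to 3.13-fold, and *Ly6i* was lower in GFPpos CCR2high macrophages in 4 of 4, by 1.201- to 1.57-fold. In glioma monocytes *Ly6c2* was lower in GFPpos cells in 3 of 3 mice (1.10- to 2.38-fold) and *Ly6c1* higher in 3 of 3 (1.07- to 2.62-fold). In every other pairing of a member with a cell class the mice differed in direction. Agreement among so few mice, picked from all these pairings, was not tested against chance. With spike-in scaling the median gene moved by -1.37 in glioma monocytes, -0.27 in CCR2high and 0.36 in CCR2low macrophages, and small member values changed sign with it. Whether GFP differences depended on the cell class was tested in 12 contrasts, with no adjusted p below 0.999.

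Interferon-stimulated genes gave a background for *Ly6a*, *Ly6e* and *Ly6i*, and 31 of 31 listed genes, such as *Isg15*, *Ifit1* and *Irf7*, were tested. Over Ly6Chigh monocytes, 29 rose in GFPneg glioma monocytes, 19 in CCR2high and 15 in CCR2low macrophages, and none fell. Median log2 differences were 2.67, 1.23 and 0.94, against 0.12, 0.15 and 0.17 for all genes. In blood 4 of 31 were higher and 2 lower in Ly6Chigh monocytes. In GFPneg cells, 1 was higher in glioma monocytes than in CCR2high macrophages and 12 higher than in CCR2low macrophages. *Isg15* averaged 56.0 CPM in Ly6Chigh monocytes, 937 in GFPneg glioma monocytes and 227 in GFPneg CCR2low macrophages. Over 22 brain replicates the summed level of the list had r = 0.88 with *Ly6a*, 0.92 with *Ly6e*, 0.92 with *Ly6i*, 0.87 with *Ly6c2*, 0.68 with *Ly6d* and 0.04 with *Ly6c1*, in replicates that share mice. *Rtp4* was the gene most like *Ly6i* in the brain (r = 0.94), *Ly6i* the most like *Ly6a* (r = 0.92) and *Xaf1* the most like *Ly6e* (r = 0.96). Over all 28 replicates the leading genes were *AW112010* for *Ly6a* (r = 0.96), *Nfkbie* for *Ly6i* (r = 0.85), *Chmp2a* for *Ly6e* (r = 0.91) and *Ms4a4c* for *Ly6c2* (r = 0.91).

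Of 38 other Ly6 and uPAR family genes listed, 9 passed the filter. *I830127L07Rik*, a pseudogene on chromosome 15 at 75131377 to 75135128, beside *Ly6c2*, resembled *Ly6c2* in its order in blood: 218 to 251 CPM in Ly6Chigh and 12.3 to 25.2 CPM in Ly6Clow monocytes (log2 fold change 3.49, adjusted p = 0.00385). In GFPneg glioma monocytes it had 58.7 to 95.8 CPM, below the Ly6Chigh range, but this difference was not called (-1.65, adjusted p = 0.103). *Ly6c2* was above Ly6Chigh there, a call lost when any 1 replicate was left out. The pseudogene averaged 1.75 to 3.22 CPM in macrophages. *Cd177*, a neutrophil surface gene, fell from a mean of 1286 CPM in Ly6Chigh monocytes to 7.24 CPM in GFPneg CCR2high macrophages (-7.35, adjusted p = 1.31e-04). Neutrophil markers summed to 888 to 1810 CPM in Ly6Chigh monocytes, 905 to 1152 CPM in Ly6Clow monocytes and 198 to 504 CPM in GFPneg CCR2high macrophages. They summed to 365 to 2220 CPM in GFPneg glioma monocytes, where *Cd177* averaged 192 CPM. In GFPneg CCR2low macrophages they summed to 258 to 2423 CPM, and *Cd177* averaged 11.8 CPM. The part of neutrophils in *Cd177* was not tested. *Plaur*, the urokinase receptor, was higher in GFPneg glioma monocytes than in Ly6Clow monocytes (1.13, adjusted p = 0.0142) and than in CCR2low macrophages (1.31, adjusted p = 0.0212).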

How the data were processed

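The authors deposited whole-number read counts per gene for 30 libraries, without normalization. Cells were sorted by FACS, and cDNA was made with the SMARTer Ultra Low Input kit. STAR was used by the authors for alignment of the 75-base read pairs (mm10), Picard 1.8.4 for removal of duplicates, and the counting was done with htseq-count against a Gencode GRCm38.p3 annotation. The strand setting is not given in the sources used here. Libraries with at least 6000 genes at 5 or more reads were kept, which left out 1, and repeat libraries of a mouse and population were summed, giving 28 replicates. Mouse numbers were read from the sample titles. Counts were fitted with edgeR 4.0.16 (R 4.3.3) after filterByExpr and TMM, by the robust quasi-likelihood test over all 8 populations with Benjamini-Hochberg adjustment across 11566 genes at 0.05. Marker and likeness correlations used log2 CPM with a prior count of 2 or of CPM plus 1, with likeness taken among genes averaging 10 CPM or more. The fit was tested on simulated data. The members and gene lists were chosen with earlier results of these data known. Named genes were the 6 members, the family genes passing the filter, and the 3 most alike genes of each member, with examples from other lists. Replicate numbers mark animals, so mouse was used as a block in an alternative fit. Deviations from population means correlated at a median of 0.14 between populations of the same mouse (86 pairs) and -0.03 between mice (256 pairs). Intervals of *Ly6c1* count ratios cover counting error only, and those of log2 fold changes are 1.96 SE of the edgeR fit on either side. Leaving out single mice from these ratios was chosen after seeing the data.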

Additional observations from a re-analysis of the deposited data

How the results depend on the processing

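The number of the 6 members called was recomputed under other settings. These counts describe the settings, and the number of all genes called is set beside them for the block only. For the other settings it is not shown whether a changed count is particular to the members. Scaling to spike-in RNA moved the median of all genes by -1.70 to 1.87 (log2), and gave 1 (2 in the main test) in the blood comparison, 3 (5), 2 (4) and 2 (4) for GFPneg glioma monocytes, CCR2high and CCR2low macrophages against Ly6Chigh, and 2 (1) for CCR2high against Ly6Clow. It gave 0 (1) and 1 (2) for GFPneg glioma monocytes against CCR2high and CCR2low macrophages, and 0 (1) and 0 (1) for the GFPpos pair. Folds that changed sign with it were, against Ly6Clow, CCR2low *Ly6i* 0.37, GFPpos glioma monocytes against CCR2high macrophages *Ly6i* -0.48, and against CCR2low macrophages *Ly6a* -1.26, *Ly6e* -1.41 and *Ly6d* -1.09; relative to the median gene these were -1.37, 0.74, 0.45, 0.30 and 0.62, with no change of sign. With mouse as a block the counts were 4 in blood, 2 for CCR2high against Ly6Clow, 3 and 4 for GFPneg glioma monocytes against CCR2high and CCR2low macrophages, 1 for CCR2high against CCR2low, and 3 and 4 for the GFPpos pair. Over all genes the block called 922 in blood (649 in the main test), and 2852 (2669) for CCR2high against Ly6Clow. For GFPneg glioma monocytes against the macrophages it called 96 (21) and 284 (140). CCR2high against CCR2low gave 3 (0), and the GFPpos pair 25 (2) and 61 (19). Beyond the calls given with the block in the report, it changed none. Fitting only compared populations gave 0 in blood, 2 for glioma monocytes and 1 for CCR2low macrophages against Ly6Clow, and turned *Ly6c2* in the latter to -0.00914. A filter of 1 count gave 2 and 1 for the same pair. DESeq2 gave 4 in blood, 2 for CCR2high against Ly6Clow and 2 for GFPpos glioma monocytes against CCR2low macrophages. Leaving out 1 replicate gave 2 to 3 in blood, 3 to 4, 2 to 4 and 4 to 4 against Ly6Chigh, and 2 to 3, 1 to 2 and 1 to 2 against Ly6Clow (each for glioma monocytes, CCR2high and CCR2low), with 1 to 4 for GFPpos glioma monocytes against CCR2low macrophages. *Ly6c2* of CCR2low against Ly6Clow ranged from -0.41 to 1.35 then. The cause was not tested. DESeq2 size factors and either repeat library alone changed no count by over 1.5 times. As CPM on total gene counts, Ly6Clow means with the failing library of mouse 23 were 212 for *Ly6c2*, 1.97 for *Ly6c1*, 5125 for *Ly6e* and 103.5 for *Ly6d*, against 122, 3.08, 4681 and 62.3 with the library that was used.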
